A study of Mus musculus with 18 samples.

Results

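The dystrophin-glycoprotein complex was described through 8 genes, Dmd, Utrn, Dag1, Sgca, Sgcb, Sgcd, Sspn and Dtna, chosen by gene symbol from the array's annotation, out of 19057 symbols with a probe. They had 25 of the 45281 probes on the Illumina bead arrays used, and 18 of these were above background (detection p under 0.05) on at least 3 of 17 arrays. These 18 probes, at least 1 for each gene, are described here out of 20825 probes tested.

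RNA came from the tibialis anterior, a muscle of the lower leg, of mice aged 2 months. Each muscle had been injected 3 times over 10 days, with a recovery of 3 days between injections, either with single-stranded RNA (ssRNA) or, in the opposite leg, with saline. Mice of the A/J-MyD88 deficient strain, written A/J-MyD88 below, are labelled as lacking dysferlin and MyD88, A/J mice as lacking dysferlin, and A/JOlaHsd mice as wild-type with dysferlin. The groups held 3 arrays each (A/J-MyD88 ssRNA, A/J-MyD88 saline, A/J ssRNA, A/J saline, A/JOlaHsd saline), apart from A/JOlaHsd ssRNA, which held 2 after 1 array without signal was left out. Dysferlin takes part in the repair of the muscle fibre membrane, and MyD88 is an adaptor of most Toll-like receptors, some of which bind ssRNA inside the cell. The labels do not say that the arrays of a group came from separate animals, so the p-values measure only the spread between these arrays, which may be technical.

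The complex spans the membrane of the muscle fibre. Dystrophin ties the actin cytoskeleton to dystroglycan, dystroglycan binds laminin outside the fibre, and the sarcoglycans and sarcospan form a subcomplex that holds dystroglycan in place. Dystrobrevin and the syntrophins bind dystrophin on the inner side, and the loss of dystrophin or of a sarcoglycan causes muscular dystrophy.

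The mean signal per array before normalization was 98.1 to 140 for A/J-MyD88, 121 to 147 for A/J and 37.4 to 50.2 for A/JOlaHsd, so strain and overall signal cannot be told apart in any comparison with A/JOlaHsd. Values below are log2 values after background correction and quantile normalization of the 17 arrays together. An offset of 16 was added before the logarithm, so a probe without signal lies near 4 and differences between dim probes are compressed. Differences are given with their standard error (SE), and group means with their SD. Adjusted p-values come from limma and were adjusted over all 20825 probes, with a call at an adjusted p under 0.05. The main probe of Dysf, the dysferlin gene, differed by -3.47 ± 0.14 between saline legs of A/J and A/JOlaHsd (adjusted p = 3.37e-10). Of its 4 described probes 3 were lower in the A/J legs, and ILMN_3057828 was higher by 0.81 ± 0.16 (adjusted p = 0.00086). The main Myd88 probe stood above its A/J level by 0.71 ± 0.17 in saline legs of A/J-MyD88 (adjusted p = 0.0272), and the sources used here do not say whether it lies in the targeted part of the gene, so it does not check the labels. The 9 measured genes of mature muscle fibres summed to 81200 to 87800 on A/J-MyD88 arrays, 78400 to 85400 on A/J arrays and 65000 to 77000 on A/JOlaHsd arrays, on the linear normalized scale.

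No probe of the complex passed the test between ssRNA and saline legs in any strain. Of all probes tested 17.9% did in A/J, 0% in A/J-MyD88 and 2.25% in A/JOlaHsd. In A/J some probes of the complex were called under other settings, given below. In saline legs 8 of the 18 probes were called between A/J and A/JOlaHsd, as were 44.4% of all probes tested. Among the 10 above background on every array, a probe each of Dag1, Sgcb and Dtna was higher in A/J and the Sspn probe was lower. Of all probes above background on every array, 55.4% were called. The main probe of a gene, the one with the highest mean log2 value, is plotted by array for each of the 8 genes.

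**Figure D1:**
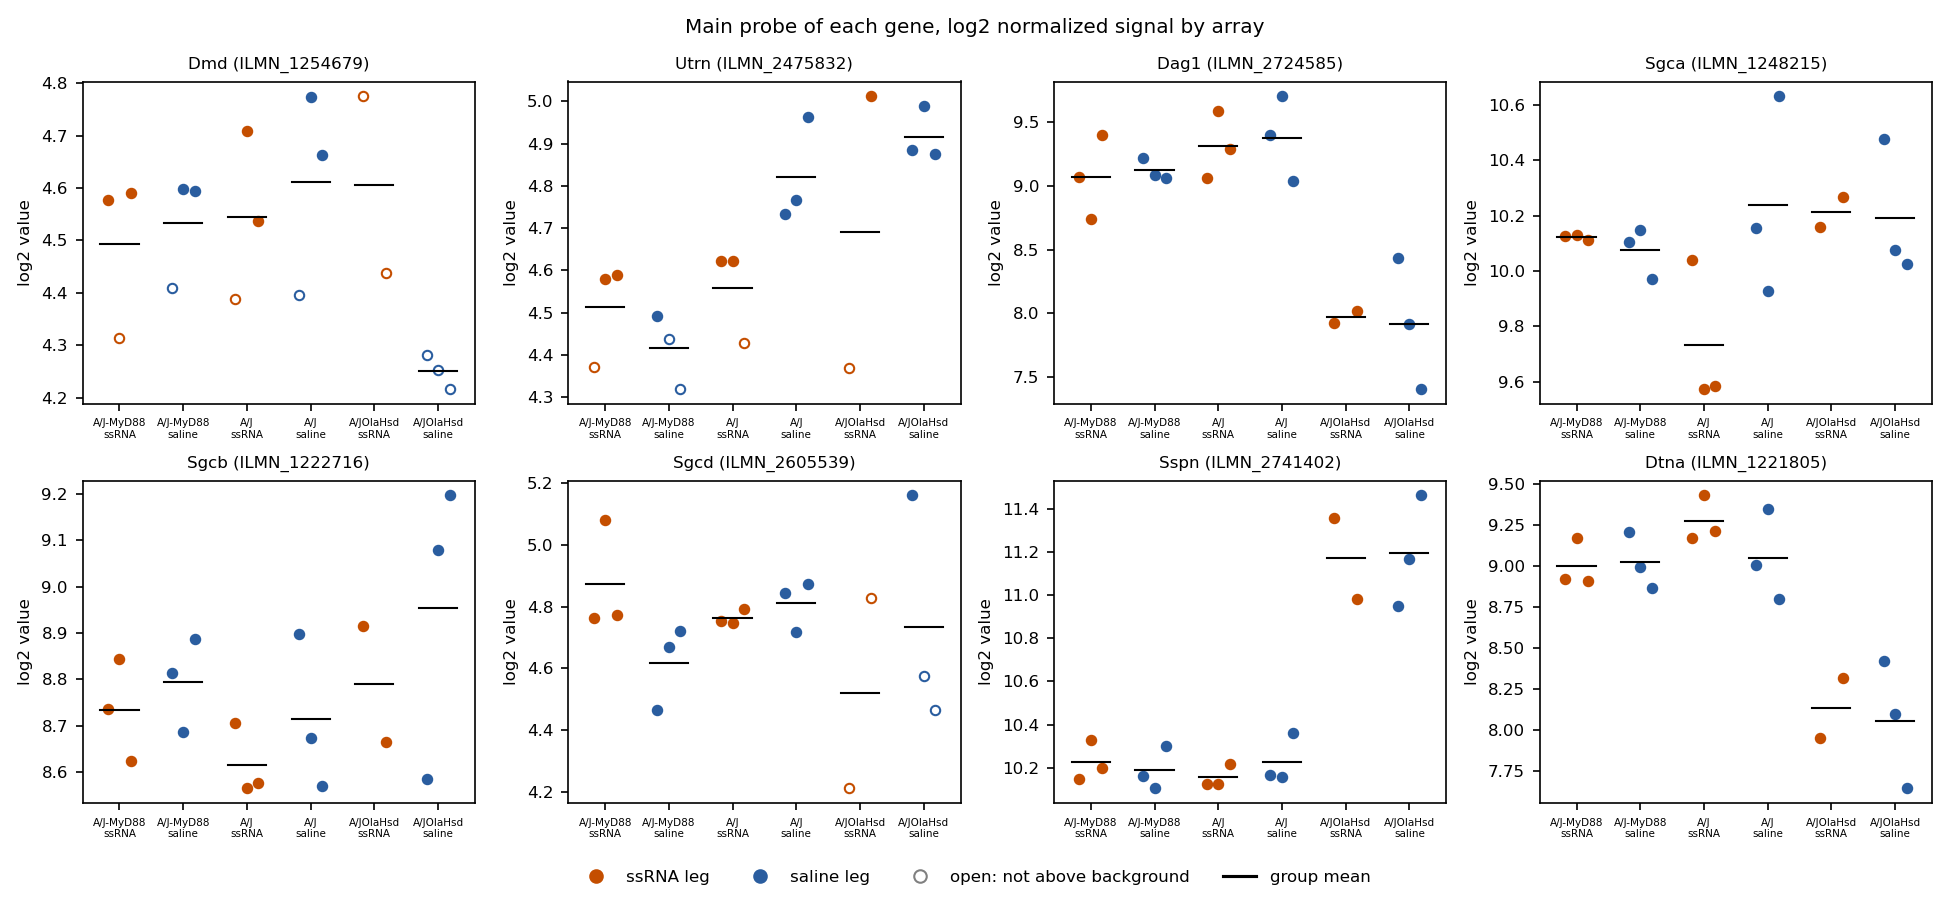
Normalized log2 signal (y axis, a separate range for each gene) of the main probe of each gene on the 17 arrays, by strain and injection (x axis), with open circles where the probe was not above background and lines at group means. Dag1 and Dtna lie lower and Sspn higher on the 5 A/JOlaHsd arrays, without overlap with the other 12, and Dmd, Utrn and Sgcd lie close to the floor of about 4.

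Dmd encodes dystrophin, and its level was barely measured. The pair of Dmd probes annotated to a RefSeq mRNA (ILMN_2433876 and ILMN_2672006) were above background on 0 of 17 arrays. The third probe (ILMN_1254679), annotated to a cDNA clone, was above background on 8 of 17. It read 4.58, 4.31 and 4.59 in A/J-MyD88 ssRNA legs against 4.41, 4.60 and 4.60 in A/J-MyD88 saline legs. In A/J it read 4.39, 4.71 and 4.54 in ssRNA legs against 4.40, 4.77 and 4.66 in saline legs. These 4 groups overlapped, and 2 of 3 arrays in each were above background. In A/JOlaHsd it read 4.78 and 4.44 in ssRNA legs against 4.28, 4.25 and 4.22 in saline legs, with none of the 5 arrays above background.

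The Dmd probe passed the filter only through the dysferlin-deficient strains, so its fitted difference of 0.36 between saline legs of A/J and A/JOlaHsd is a description, with no test. Set against the faintest probes above background on the A/JOlaHsd arrays, its level in A/J gave no bound above 1-fold. With arrays centred on their median instead of quantile-normalized the difference was -0.55, and no direction is given for Dmd. Which Dmd transcripts the 3 probes read is not stated in the sources used here.

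Utrn encodes utrophin, the autosomal relative of dystrophin, which is found at the neuromuscular junction of normal adult fibres. Of its 5 probes, 2 were described, and 3 were above background on 0 of 17 arrays. Its main probe (ILMN_2475832), annotated to a RefSeq mRNA, averaged 4.51 ± 0.12 in A/J-MyD88 ssRNA legs and 4.42 ± 0.09 in A/J-MyD88 saline legs, 4.56 ± 0.11 in A/J ssRNA legs and 4.82 ± 0.12 in A/J saline legs, and 4.69 ± 0.45 in A/JOlaHsd ssRNA legs (n = 2) and 4.92 ± 0.06 in A/JOlaHsd saline legs (n = 3 for the others). The A/J saline arrays, at 4.73, 4.77 and 4.96, lay above all 3 A/J ssRNA arrays, at 4.62, 4.62 and 4.43, but the difference of -0.26 ± 0.14 did not pass the test (adjusted p = 0.243). It did with each strain normalized alone (-0.32, adjusted p = 0.0414) and with median centring (-0.44, adjusted p = 0.0146). A/J-MyD88 saline legs lay below A/J saline legs without overlap, by -0.40 ± 0.14 (adjusted p = 0.162, and -0.54 with an adjusted p = 0.0137 under median centring).

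The second Utrn probe (ILMN_1251617), annotated to a cDNA clone, read between 4.61 and 5.11 (median 4.85) on the 12 A/J-MyD88 and A/J arrays, against 4.18 to 4.23 (median 4.20) on the 5 A/JOlaHsd arrays. It was above background on all 12 and on 0 of 5, and so passed the filter only through the strains where it is high. The saline values, at least 1.08-fold higher in A/J by a bound set by the faintest probes detected on the A/JOlaHsd arrays, are therefore a description, with no test. The main probe differed by -0.10 ± 0.14 in the same comparison (adjusted p = 0.615), so in this fit the pair of probes did not give the same picture. Under median centring both differences were negative, at -0.54 for the main probe (adjusted p = 0.0013) and -0.20 for the second.

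Dag1 encodes dystroglycan, the laminin receptor at the centre of the complex. Its main probe (ILMN_2724585) read 9.07, 8.74 and 9.40 in A/J-MyD88 ssRNA legs against 9.22, 9.09 and 9.06 in A/J-MyD88 saline legs, and 9.06, 9.59 and 9.29 in A/J ssRNA legs against 9.40, 9.70 and 9.04 in A/J saline legs. In A/JOlaHsd it read 7.93 and 8.02 in ssRNA legs against 8.44, 7.92 and 7.41 in saline legs. Within each strain the legs overlapped, and all 12 arrays of the dysferlin-deficient strains lay above the 5 A/JOlaHsd arrays. The difference between A/J and A/JOlaHsd saline legs was 1.46 ± 0.24, a 2.75-fold higher signal in A/J (adjusted p = 0.000158). Before normalization the same probe gave signals of 578 to 1077 on the 12 arrays, against 53.5 to 131 on the 5.

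The second Dag1 probe (ILMN_2853957), also annotated to a RefSeq mRNA, did not separate the strains in this fit. It read 8.46, 8.62 and 8.62 in A/J saline legs, against 8.81, 7.91 and 7.35 in A/JOlaHsd saline legs, and the difference of 0.54 ± 0.29 did not pass the test (adjusted p = 0.134). The 3 A/JOlaHsd saline arrays spread over a wide range, and without A/JOlaHsd saline replicate 1 the difference was 0.94 (adjusted p = 0.0044), without replicate 3 it was 0.21 (adjusted p = 0.554), and under median centring of all arrays it was 1.08 (adjusted p = 0.00239). The main probe exceeded the second by 0.42 to 1.36 (median 0.93) on the 12 A/J-MyD88 and A/J arrays, against -0.37 to 0.06 (median 0.01) on the A/JOlaHsd arrays. In A/J ssRNA legs the second probe read 7.82, 8.39 and 7.93, below the 3 saline arrays, with a difference of -0.52 ± 0.29 (adjusted p = 0.245, and 0.0496 with only the compared arrays in the fit).

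Sgca encodes alpha-sarcoglycan, which is specific to striated muscle, and it came closest to a difference between ssRNA and saline legs. All 3 of its probes were annotated to RefSeq mRNAs and were above background on 17 of 17 arrays. In A/J the main probe (ILMN_1248215) read 10.04, 9.57 and 9.58 in ssRNA legs against 10.16, 9.93 and 10.63 in saline legs. The 2 lowest ssRNA arrays lay below all saline arrays and the third did not. The difference was -0.51 ± 0.17, a level of 70.4% of that in saline legs, with an adjusted p = 0.0566.

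The other Sgca probes were lower in the same legs, without a call. ILMN_1222601 read 6.89, 6.27 and 6.88 in A/J ssRNA legs against 7.33, 6.94 and 8.03 in A/J saline legs, without overlap (-0.76 ± 0.26, adjusted p = 0.0568). ILMN_2938154 read 10.07, 9.58 and 9.91 in ssRNA legs against 10.11, 9.95 and 10.49 in saline legs (-0.33 ± 0.18, adjusted p = 0.231). These 3 probes report on 1 gene in the same RNA and are not independent of each other.

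The size of the Sgca difference rested largely on 1 pair of arrays. By replicate number, the main probe differed between A/J ssRNA and saline legs by -0.11, -0.35 and -1.05, the last of these in replicate 3, whose saline array was the highest of all 17. Without A/J saline replicate 3 the difference was -0.31 (adjusted p = 0.29), without A/J saline replicate 2 it was -0.66 (adjusted p = 0.0194), and without A/J ssRNA replicate 1 it was -0.66 (adjusted p = 0.0271). Same-numbered arrays of the opposite legs were correlated in A/J and A/J-MyD88, but the labels do not say that a number marks an animal. With the replicate number as a block, 1 of the 18 probes was called in A/J, ILMN_1222601 of Sgca (adjusted p = 0.00938), against 19% of all probes, and the main probe had an adjusted p = 0.0796. With that block and the arrays of A/J and A/J-MyD88 alone, a setting added after seeing the data, all 3 Sgca probes were called (adjusted p = 0.0298 for the main probe, 0.0497 and 0.00299), among 7 of the 18 probes and 33.2% of all probes. The call of the main Sgca probe also depended on the scaling. Its difference was -0.50 when each strain was normalized alone (adjusted p = 0.0367) and -0.50 from the authors' normalized values (adjusted p = 0.0363). With median centring it was -0.68 (adjusted p = 0.00754). In these settings 28.9%, 29.1% and 35.5% of all probes were called, against 17.9% as reported.

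In the other strains the main Sgca probe showed no such gap. The main probe read 10.13, 10.13 and 10.11 in A/J-MyD88 ssRNA legs against 10.10, 10.15 and 9.97 in A/J-MyD88 saline legs (0.05 ± 0.17, 95% interval -0.32 to 0.42). It read 10.16 and 10.27 in A/JOlaHsd ssRNA legs against 10.48, 10.07 and 10.03 in A/JOlaHsd saline legs (0.02 ± 0.20, interval -0.39 to 0.44). The response of A/J-MyD88, its ssRNA minus saline difference, exceeded that of A/J by 0.55 ± 0.25 (adjusted p = 0.217), and the response of A/J differed from that of A/JOlaHsd by -0.53 ± 0.26 (adjusted p = 0.25), so neither difference in response passed the test. Saline legs of A/J and A/JOlaHsd differed in the main Sgca probe by 0.05 ± 0.17 (adjusted p = 0.853), and by 0.54 under median centring (adjusted p = 0.011). ILMN_1222601 differed there by -0.47 ± 0.26 (adjusted p = 0.159), and by -0.77 without A/J saline replicate 3 (adjusted p = 0.024). Between ssRNA and saline legs ILMN_1222601 differed by -0.17 in A/J-MyD88 (interval -0.73 to 0.38) and by -0.19 in A/JOlaHsd (interval -0.81 to 0.43). ILMN_2938154 differed between these legs by -0.04 in A/J-MyD88 (interval -0.42 to 0.33) and by -0.17 in A/JOlaHsd (interval -0.59 to 0.26).

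Sgcb encodes beta-sarcoglycan, a partner of alpha-sarcoglycan that many tissues express. Its main probe (ILMN_1222716) had group means between 8.62 and 8.95, the lowest in A/J ssRNA legs (8.62 ± 0.08) and the highest in A/JOlaHsd saline legs (8.95 ± 0.32), and the strains and legs overlapped throughout. It differed by -0.10 ± 0.15 between ssRNA and saline legs in A/J (interval -0.42 to 0.22, adjusted p = 0.731). The second probe (ILMN_1255256) read 7.44 to 7.83 (median 7.67) on the 12 A/J-MyD88 and A/J arrays, against 6.90 to 7.26 (median 7.08) on the 5 A/JOlaHsd arrays, without overlap. Its saline legs were higher in A/J, by 0.57 ± 0.12 over A/JOlaHsd (adjusted p = 0.00106), where the main probe differed by -0.24 ± 0.15 (adjusted p = 0.207). Without A/JOlaHsd saline replicate 1 the main probe was at -0.42 (adjusted p = 0.0157).

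Sgcd encodes delta-sarcoglycan, and its single described probe (ILMN_2605539) was dim. It averaged 4.87 ± 0.18 in A/J-MyD88 ssRNA legs and 4.62 ± 0.13 in A/J-MyD88 saline legs, 4.76 ± 0.02 in A/J ssRNA legs and 4.81 ± 0.08 in A/J saline legs, and 4.52 ± 0.44 in A/JOlaHsd ssRNA legs (n = 2) and 4.73 ± 0.37 in A/JOlaHsd saline legs (n = 3 for the others). All 12 arrays of the dysferlin-deficient strains were above background, against 1 of 5 A/JOlaHsd arrays. The probe thus passed the filter only through the dysferlin-deficient strains, and its values against A/JOlaHsd are a description, with no test. The 3 ssRNA arrays of A/J-MyD88 lay above its 3 saline arrays, with a difference of 0.25 ± 0.18 (adjusted p = 1). Of the other Sgcd probes, ILMN_2696134 was above background on 1 array and ILMN_1235611 on 0.

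Sspn encodes sarcospan, a small protein with several membrane spans, which in mouse muscle associates with the sarcoglycans. Its probe (ILMN_2741402) read 10.15, 10.33 and 10.20 in A/J-MyD88 ssRNA legs against 10.16, 10.10 and 10.30 in A/J-MyD88 saline legs, and 10.12, 10.12 and 10.22 in A/J ssRNA legs against 10.17, 10.16 and 10.36 in A/J saline legs. In A/JOlaHsd it read 11.36 and 10.98 in ssRNA legs against 10.95, 11.17 and 11.47 in saline legs. The 12 arrays of the dysferlin-deficient strains spanned 10.10 to 10.36 and the 5 A/JOlaHsd arrays 10.95 to 11.47, and within each strain the legs overlapped.

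The saline legs of A/J were lower than those of A/JOlaHsd in Sspn by -0.97 ± 0.14 (interval -1.26 to -0.68, adjusted p = 5.86e-05). Under median centring the difference was -0.54 (adjusted p = 0.0014). Before any normalization the signals ran the other way, 1063 to 1752 on the 12 arrays against 808 to 1098 on the 5, so Sspn was higher in A/JOlaHsd relative to the rest of those dimmer arrays. In the comparison of ssRNA with saline legs in A/J, Sspn differed by -0.07 ± 0.14 (interval -0.36 to 0.22, adjusted p = 0.795).

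Dtna encodes alpha-dystrobrevin, which binds dystrophin and the syntrophins inside the fibre, and it had the most probes, 6 of 6 described. Its main probe (ILMN_1221805) read 8.92, 9.17 and 8.90 in A/J-MyD88 ssRNA legs against 9.20, 8.99 and 8.87 in A/J-MyD88 saline legs, and 9.17, 9.43 and 9.21 in A/J ssRNA legs against 9.0, 9.34 and 8.80 in A/J saline legs. In A/JOlaHsd it read 7.95 and 8.31 in ssRNA legs against 8.42, 8.09 and 7.64 in saline legs. As with Dag1, the 5 A/JOlaHsd arrays lay below the other 12, and the legs of each strain overlapped. The A/J saline legs exceeded those of A/JOlaHsd by a difference of 1.00 ± 0.19, a 2-fold higher signal (adjusted p = 0.000559).

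The 6 Dtna probes did not give 1 direction between the strains. ILMN_2625949, ILMN_1255355 and ILMN_2572620 were each above background on all 12 A/J-MyD88 and A/J arrays and on 1 of 5 A/JOlaHsd arrays, so they passed the filter only through the strains where they are high, and their strain values are a description, with no test. In saline legs ILMN_2625949 was at least 1.57-fold higher in A/J, against A/JOlaHsd saline arrays of which none was above background, and its difference under median centring was 0.34. ILMN_1255355 differed by 0.59 (0.48 without A/JOlaHsd saline replicate 2, and 0.03 with median centring) and ILMN_2572620 by 0.43 (0.66 without A/JOlaHsd saline replicate 2). ILMN_2724339 differed by -0.39 ± 0.19 (adjusted p = 0.1), and by -0.54 without A/J saline replicate 3 (adjusted p = 0.0428). ILMN_1222187 differed by -0.50 ± 0.24 (adjusted p = 0.0963), by -0.76 without A/JOlaHsd saline replicate 1 (adjusted p = 0.0116) and by 0.39 without background correction (adjusted p = 0.0385). The main probe exceeded ILMN_2724339 by 0.37 to 1.70 (median 1.18) on the 12 A/J-MyD88 and A/J arrays, against -1.10 to 0.05 (median -0.37) on the 5 A/JOlaHsd arrays. Which transcripts of Dtna each probe reads is not stated in these sources.

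In A/J legs the Dtna probes also differed in sign. The main probe was at 0.22 ± 0.19 for ssRNA against saline (adjusted p = 0.482), while the other 5 ranged between -0.48 and -0.23. ILMN_1255355 read 4.97, 4.72 and 4.71 in A/J ssRNA legs against 5.26, 5.10 and 5.50 in A/J saline legs, without overlap, and had the largest of these differences (-0.48 ± 0.18, adjusted p = 0.0727). Its adjusted p was 0.0126 with each strain normalized alone, 0.0095 with median centring, 0.0139 from the authors' normalized values, 0.0302 with only the compared arrays and 0.00844 with the added block, and 0.0582 to 0.272 without each single array.

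**Figure D2:**
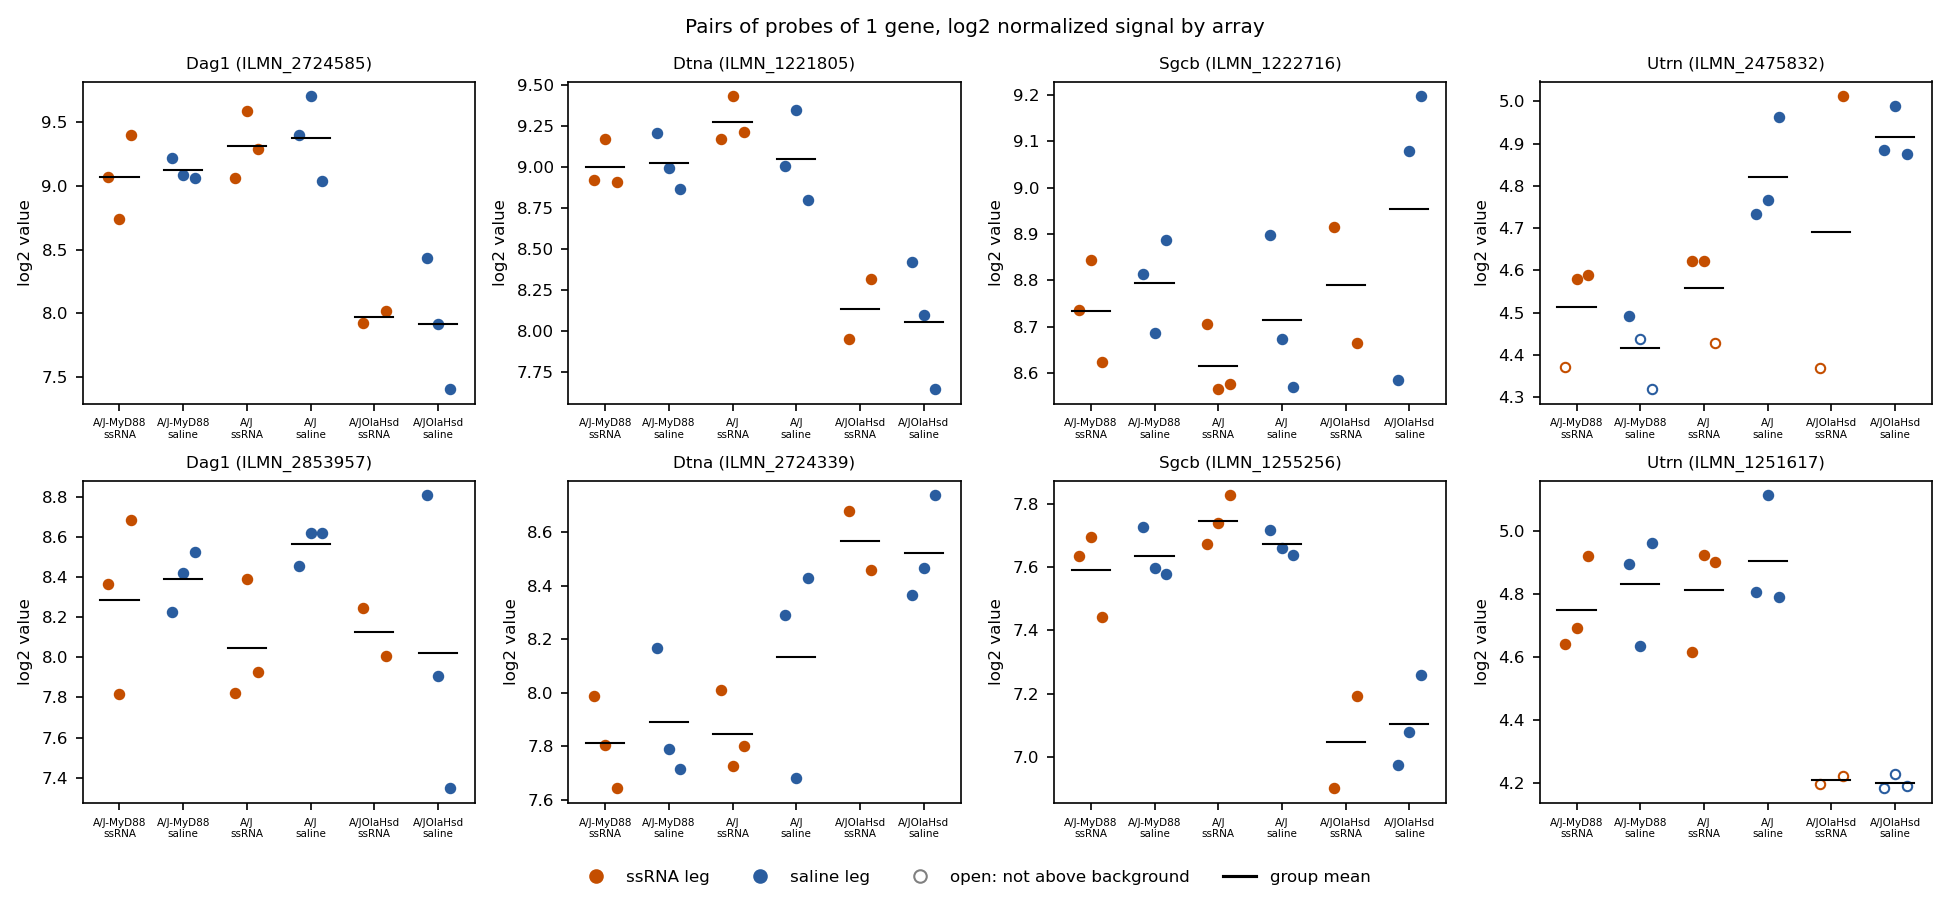
Normalized log2 signal (y axis, a separate range for each panel) of a pair of probes of Dag1, Dtna, Sgcb and Utrn, one above the other, on the 17 arrays by strain and injection (x axis), with open circles where the probe was not above background and lines at group means. In each pair shown 1 probe separates the 5 A/JOlaHsd arrays from the other 12 and the other does not. The pairs are a selection, without the other Dtna probes and without Sgca, whose probes all overlap between these arrays. Of all probes tested, 22.4% separate the same arrays.

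Over all 18 probes, 0 were called between ssRNA and saline legs in A/J by limma, against 17.9% of all probes tested. At an unadjusted p under 0.05 there were 3, a pair from Sgca and 1 from Dtna. The difference was negative for 16 of the 18, with a median of -0.24, against 58.4% and a median of -0.06 over all probes. Probes of 1 gene are not independent, and with the main probe of each gene the median was -0.07, against -0.05 over all genes. The 95% intervals of single probes ran between -1.31 and 0.62. These intervals reached below -1 for 2 probes, ILMN_2853957 of Dag1 and ILMN_1222601 of Sgca. The legs did not overlap for 6 of the 18, all lower in ssRNA legs, against 22.4% of all probes without overlap and lower and 40.5% without overlap in either direction. In A/J-MyD88, 0 of 18 were called, against 0% of all probes, with 0 at an unadjusted p under 0.05 and differences between -0.17 and 0.25. In A/JOlaHsd, 0 of 18 were called, against 2.25% of all probes, with 1 at an unadjusted p under 0.05, the Dmd probe, which was above background on no array there.

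The responses to ssRNA were also compared between strains. Of the 18 probes, 0 were called for the response of A/J-MyD88 against that of A/J, against 7.22% of all probes, with 1 at an unadjusted p under 0.05 (the main Sgca probe). For the response of A/J against that of A/JOlaHsd, 0 were called, against 5.46% of all probes, with 0 at an unadjusted p under 0.05. Both comparisons share the A/J arrays. The smallest adjusted p was 0.217 in the comparison of A/J-MyD88 with A/J and 0.232 in that of A/J with A/JOlaHsd.

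**Figure D3:**
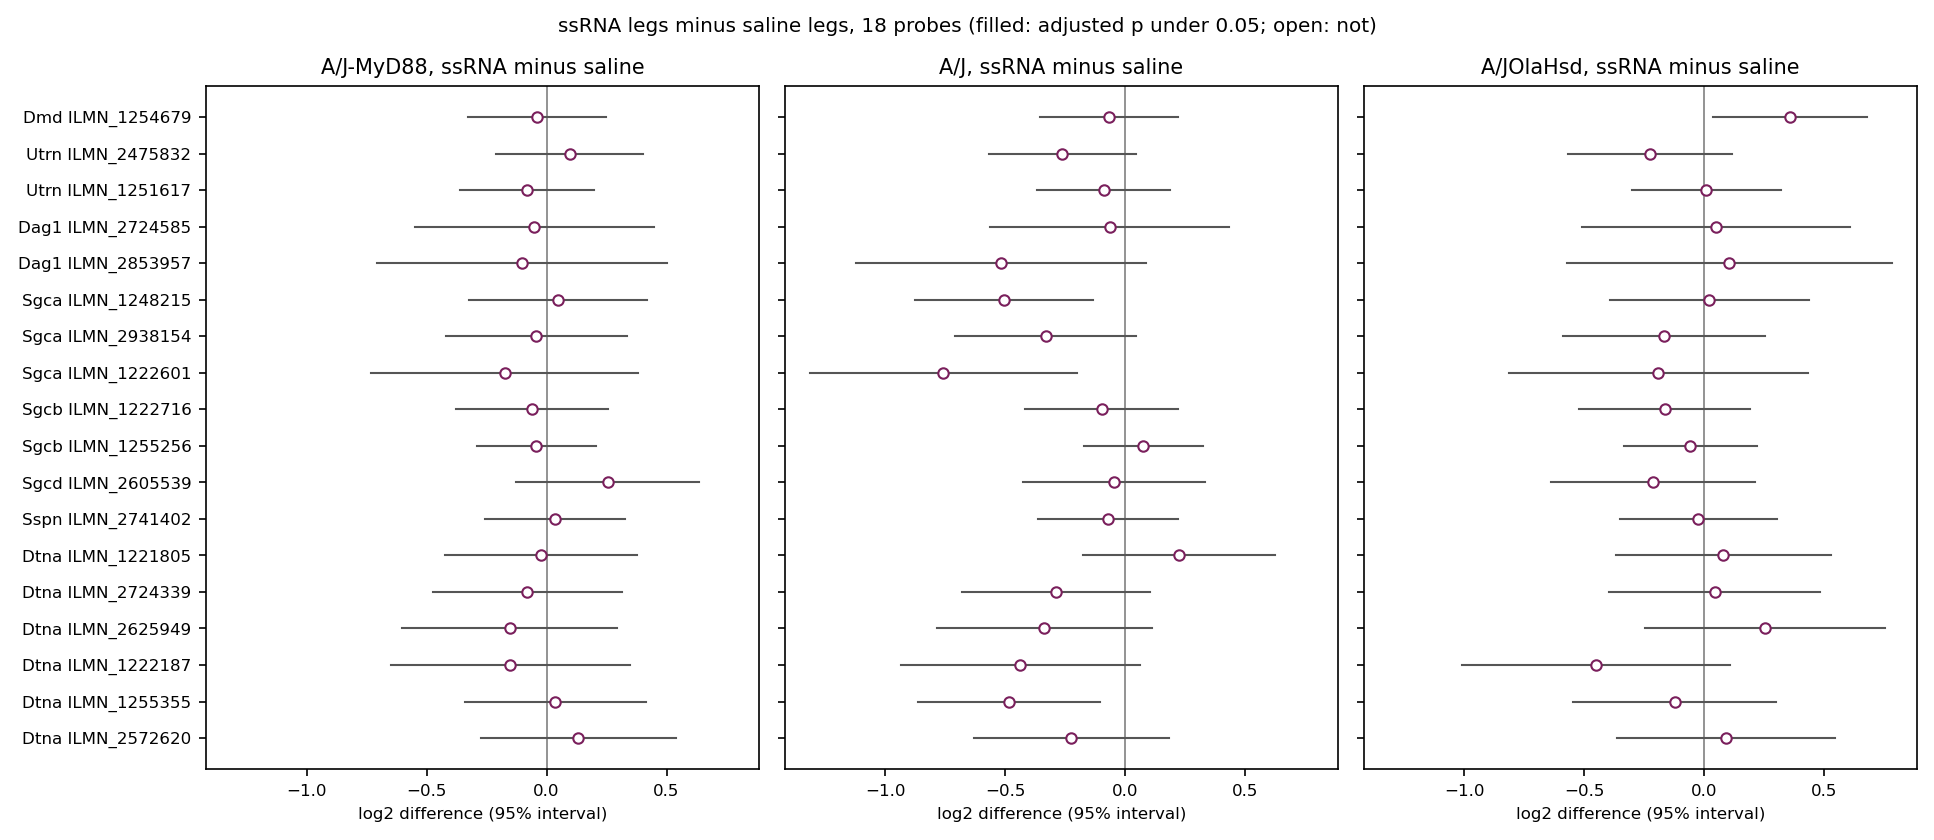
Difference in log2 value between ssRNA and saline legs (x axis) for the 18 probes (rows) in A/J-MyD88, A/J and A/JOlaHsd, with 95% intervals from the fit. No circle is filled, since no adjusted p was under 0.05, and 16 of 18 circles lie below 0 in A/J, with Sgca ILMN_1222601 the lowest at -0.76.

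Other cell types moved with the treatment in A/J. Of 9 measured macrophage markers 9 were higher in ssRNA legs, and their summed linear level was 4640 to 6940 there, against 514 to 913 in saline legs. Of 6 fibroblast markers 4 were higher (sums 7270 to 8240 in ssRNA legs, 4240 to 6300 in saline legs), and of 9 genes of mature fibres 0 were called (78400 to 85400 in ssRNA legs, 82400 to 84100 in saline legs). Of the markers of regenerating fibres 1 of 3 was higher, 1 of 4 of smooth muscle and 1 of 3 of Schwann cells were lower, and 0 of 5 of endothelium were called. In A/J-MyD88, 0 of 9 macrophage markers were called (2580 to 3130 in ssRNA legs, 2530 to 4410 in saline legs). Their part in the values of the complex was not tested, and in whole muscle fewer cells of a type and less RNA per cell cannot be told apart.

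Between saline legs of A/J and A/JOlaHsd, 8 of the 18 probes were called, against 44.4% of all probes tested, so the share among the members was near that of the array as a whole. Of these 7 were higher in A/J, where 24.5% of all probes were, and 1 was lower, where 19.9% were. The split is partly set by the filter, since 4 of the 7 (the probes of Dmd and Utrn and 2 of Dtna) passed it only through the dysferlin-deficient strains, and those of Dmd and Utrn turned negative under median centring. Of the 10 member probes above background on all 17 arrays, 3 were higher and 1 lower, against 55.4% of such probes called in either direction. Over all 10272 such probes, 2371 were higher and 3324 lower. Taking the main probe of each gene, 4 of 8 genes were called (Dag1 and Dtna higher, Dmd higher in this fit but with no stable direction as given above, and Sspn lower), against 46.7% of 11233 genes. Over both legs, 5 of the 18 probes did not overlap between the 12 A/J-MyD88 and A/J arrays and the 5 A/JOlaHsd arrays, against 22.4% of all probes. In the same saline legs 4 of 9 mature fibre genes were higher and 1 lower in A/J, 5 of 9 macrophage markers were lower (sums 514 to 913 for A/J, 2110 to 8100 for A/JOlaHsd) and 3 of 4 smooth muscle markers were lower (2520 to 2860 for A/J, 4380 to 5020 for A/JOlaHsd). Their part in the strain differences was not tested.

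The saline legs of A/J-MyD88 and A/J, whose overall signals overlapped, gave 0 calls among the 18 probes, against 3.68% of all probes. At an unadjusted p under 0.05 there was 1, the main probe of Utrn. The differences ran between -0.46 and 0.08 and were negative for 17 of 18, with a median of -0.21, against 55.3% and -0.03 over all probes. Several of these probes share a gene, and with the main probe of each gene the median was -0.12, against -0.01 over all genes. In these legs 8 of 9 macrophage markers were higher for A/J-MyD88 (sums 2530 to 4410) than for A/J (514 to 913), as were 2 of 6 fibroblast markers (5130 to 7950 for A/J-MyD88, 4240 to 6300 for A/J) and 1 of 3 markers of regenerating fibres (842 to 1620 for A/J-MyD88, 829 to 1220 for A/J), and 0 of 9 mature fibre genes were called (83100 to 87800 for A/J-MyD88, 82400 to 84100 for A/J). Their part in the values was not tested.

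**Figure D4:**
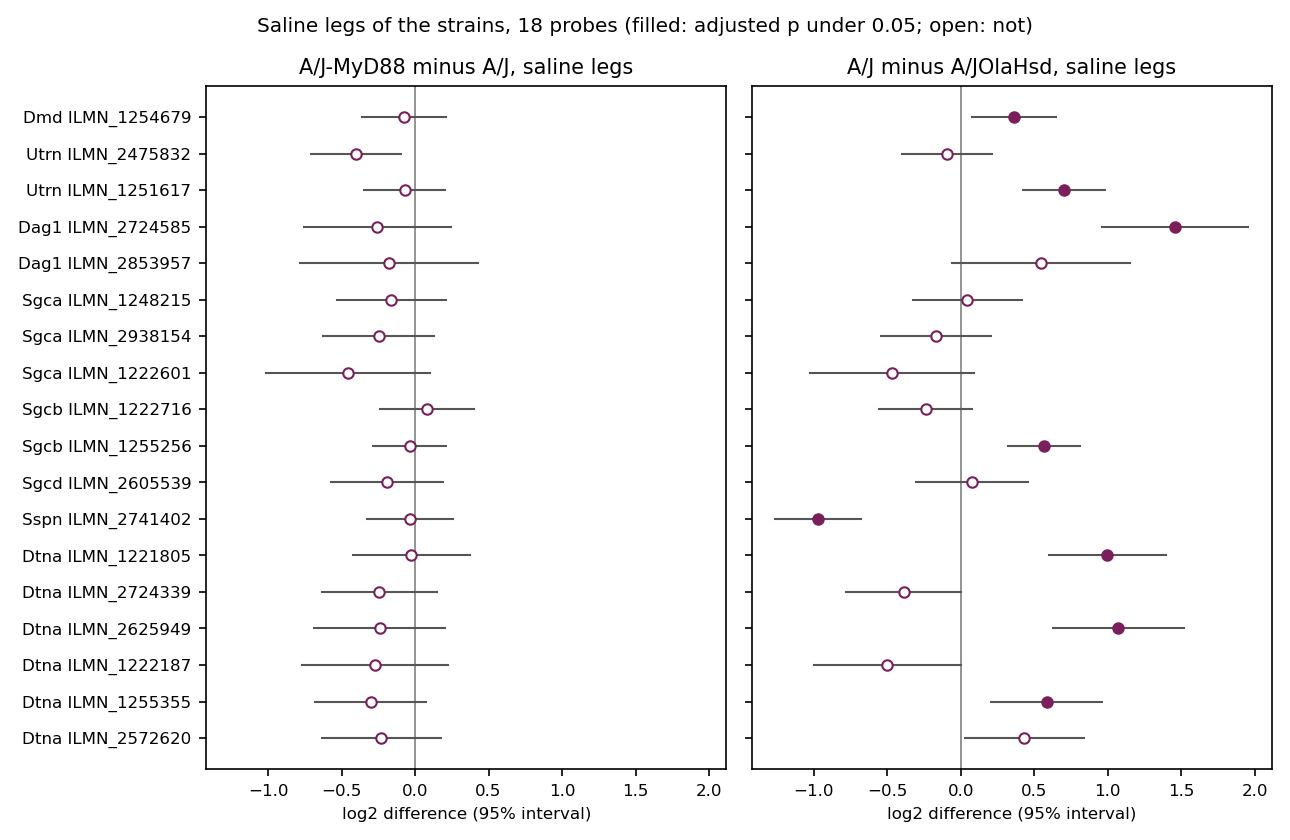
Difference in log2 value between saline legs of the strains (x axis) for the 18 probes (rows), A/J-MyD88 minus A/J on the left and A/J minus A/JOlaHsd on the right, with 95% intervals from the fit and filled circles at an adjusted p under 0.05. The left panel has no filled circle, and the right panel has 8, with Dag1 ILMN_2724585 the highest at 1.46 and Sspn the lowest at -0.97.

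Genes that work with the complex were read from 3 lists, 1 probe a gene. In A/J ssRNA legs, 2 of 12 measured genes of other dystrophin-associated proteins were higher and 3 lower than in saline legs, against 11.9% and 9.12% of all genes (21% in either direction). Bgn encodes biglycan, a matrix proteoglycan that binds dystroglycan and the sarcoglycans, and it was higher, with means of 11.41 ± 0.04 in ssRNA and 9.92 ± 0.33 in saline legs (1.49 ± 0.19, adjusted p = 9.15e-05). Cav3 encodes caveolin-3, the muscle caveolin that binds dystroglycan, and it was lower, with means of 6.92 ± 0.26 in ssRNA and 7.51 ± 0.25 in saline legs (-0.59 ± 0.18, adjusted p = 0.0302). Ank2 encodes ankyrin-B, which anchors the complex at the costamere, and it was lower by -0.56 ± 0.18 (adjusted p = 0.0445). Leaving out any of 4 arrays ended the Cav3 call and any of 5 the Ank2 call, and with the replicate block their adjusted p-values were 0.0647 and 0.09. The median difference of the list was -0.08, against -0.05 over all genes.

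Of 12 measured enzymes that make the sugar chains of dystroglycan, 0 were higher and 4 lower in A/J ssRNA legs, against 11.9% and 9.12% of all genes. The list median was -0.20, against -0.05 over all genes. Pomgnt1 (-0.59 ± 0.19, adjusted p = 0.0464), B3galnt2 (-0.49 ± 0.16, adjusted p = 0.0477) and Pomgnt2 (-0.44 ± 0.13, adjusted p = 0.0238) all add sugars to the O-mannose chain. Pomgnt1 lost its call without any of 5 A/J arrays, B3galnt2 without any of 6 and Pomgnt2 without any of 4. Without background correction the adjusted p was 0.0666 for Pomgnt1 and 0.0727 for B3galnt2, and without the filter 0.107 and 0.0899. With the replicate block it was 0.0439 for Pomgnt1, 0.0339 for B3galnt2 and 0.0469 for Pomgnt2. Of 8 genes of the integrin linkage, the other laminin receptor of the fibre, 0 were called (median 0.12), against 21% of all genes.

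In A/J-MyD88, 0 genes of the 3 lists were called between ssRNA and saline legs, and in A/JOlaHsd 0 were, against 0% and 2.05% of all genes. Bgn was the only gene of the lists called for a difference in response. The response of A/J exceeded that of A/JOlaHsd (1.30 ± 0.29, adjusted p = 0.0209), and that of A/J-MyD88 was below that of A/J (-1.32 ± 0.27, adjusted p = 0.00862), against 6.37% and 9.07% of all genes called. Saline legs of A/J-MyD88 already had more Bgn than those of A/J (means 11.02 and 9.92). The call against A/JOlaHsd was lost without A/JOlaHsd ssRNA replicate 1 (adjusted p = 0.0587), without A/J saline replicate 3 (adjusted p = 0.0579) and with only the compared arrays (adjusted p = 0.06).

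Genes of these lists differed in both directions between saline legs of A/J and A/JOlaHsd, against 22% of all genes higher and 24.7% lower. Of the other dystrophin-associated proteins 4 were higher and 2 lower. Nos1, the neuronal nitric oxide synthase that the complex anchors through syntrophin, was higher in A/J (1.74 ± 0.34, adjusted p = 0.000714), as was Cav3 (1.39 ± 0.18, adjusted p = 2.47e-05), and Des, the gene of the intermediate filament desmin, was lower (-0.90 ± 0.12, adjusted p = 2.5e-05). Of the glycosylation enzymes 2 were higher, among them B3galnt2 (1.39 ± 0.16, adjusted p = 1.17e-05), and 6 lower, among them Pomgnt2 (-0.78 ± 0.13, adjusted p = 0.000152, but -0.26 and 0.0733 under median centring) and Dpm1 (-0.63 ± 0.12, adjusted p = 0.000761), a subunit of the dolichol-phosphate mannose synthase.

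Of the integrin linkage 3 genes were higher and 2 lower in A/J saline legs. Tln2, a talin that ties integrins to actin, averaged 6.69 ± 0.39 in A/J and 4.65 ± 0.49 in A/JOlaHsd saline legs, where 1 of 3 arrays was above background, and it passed the filter only through the dysferlin-deficient strains, so no test is given. Vcl, the gene of vinculin, was higher (1.30 ± 0.16, adjusted p = 1.58e-05). Parva, the gene of alpha-parvin, was lower (-1.24 ± 0.12, adjusted p = 2.76e-06). Between A/J-MyD88 and A/J saline legs, Bgn was higher (1.10 ± 0.19, adjusted p = 0.00552) and B3galnt2 lower (-0.74 ± 0.16, adjusted p = 0.0179), and these were the only calls in the 3 lists, against 4.67% of all genes. B3galnt2 lost this call without any of 5 arrays, and Bgn without A/J-MyD88 saline replicate 2 (0.95, adjusted p = 0.0503).

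**Figure D5:**
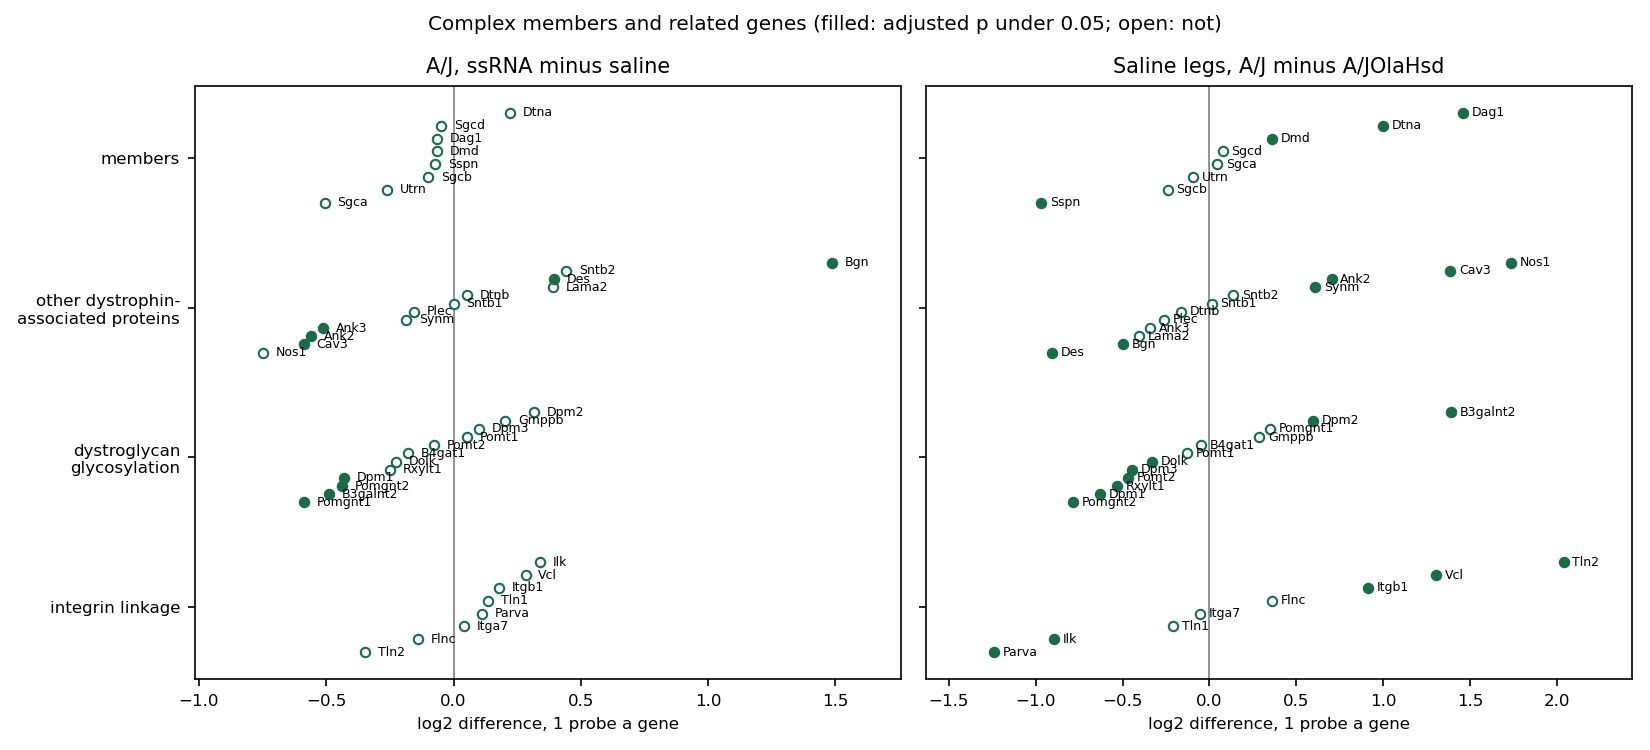
Difference in log2 value (x axis, 1 probe a gene) between ssRNA and saline legs of A/J, left, and between saline legs of A/J and A/JOlaHsd, right, for the 8 members and the measured genes of 3 lists (rows), with filled circles at an adjusted p under 0.05. On the left Bgn stands apart at 1.49 and no member is filled, and on the right 4 members are filled, on both sides of 0.

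The genes most like each member were taken by Pearson's r of the main probes over the 17 arrays, as a description, since the arrays share strains and overall signal. Sspn was most like Mylk (r = 0.99), Dag1 most like Pkig (0.979) and Dtna most like Ndrg2 (0.975), the 3 members whose main probes separated A/JOlaHsd from the other strains. Over the 12 A/J-MyD88 and A/J arrays alone these values were 0.667, 0.833 and 0.815. Sgca was most like Wbp1 (0.879, and 0.89 over the 12 arrays) and Sgcb most like Rapgef2 (0.865 and 0.724). The dim probes of Dmd, Utrn and Sgcd were most like Nbeal1 (0.831 and 0.741), Magi1 (0.801 and 0.596) and Fam189b (0.871 and 0.605).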

How the data were processed

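RNA of 18 muscles was measured on Illumina bead arrays. The probe intensity values were exported from GenomeStudio without normalization and deposited by the authors, per the file headers and the submitters' processing notes, with a detection p-value deposited beside each. A second deposited table of intensity values, normalized by the authors, served as an alternative. Background correction from the detection p-values (nec, offset 16) used limma 3.58.1 under R 4.3.3, and 17 arrays were quantile-normalized and log2-transformed. The array A/JOlaHsd ssRNA 2 was left out, since its mean signal was -0.333. Probes entered the fit if above background (p under 0.05) on 3 or more arrays. A mean per group was fitted (lmFit, eBayes; 11 residual degrees of freedom, 4.71 from the prior), two-sided, with Benjamini-Hochberg adjustment. The number of arrays limits the precision.

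Gene symbols come from the platform annotation. The named genes were the 8 members, up to 3 called genes of each list with the largest change, Dysf, Myd88 and the genes most like each member. The members and lists were chosen with earlier results of these data known. For a probe that no array of the lower group detected, a lower bound is given, computed against the faintest probe above background on each array. Whether a replicate number marks both legs of an animal is not stated in the labels. Deviations of same-numbered arrays correlated at 0.385, 0.478 and 0.176 in A/J and 0.441, 0.197 and 0.15 in A/J-MyD88, but at -0.122 and -0.111 in A/JOlaHsd. The fit was tested on simulated data with independent noise and planted changes. That simulation held no correlated legs, no compression near the floor and no strain difference in signal. Alternatives changed the arrays, background correction, normalization, filter, 1 probe a gene, the replicate block, and left out each array in turn.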

Additional observations from a re-analysis of the deposited data

Results flagged for a closer look

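Bgn, a gene of the list of other dystrophin-associated proteins, differed between strains in its response to ssRNA. Its ssRNA minus saline difference in A/J exceeded that of A/JOlaHsd by 1.30 (adjusted p = 0.0209), and that of A/J-MyD88 differed from that of A/J by -1.32 (adjusted p = 0.00862), both tested as differences in response, which share the A/J arrays. Within strains the differences were 0.17 ± 0.19 in A/J-MyD88, 1.49 ± 0.19 in A/J and 0.19 ± 0.22 in A/JOlaHsd. Mean levels in ssRNA and saline legs were 11.18 and 11.02 in A/J-MyD88, 11.41 and 9.92 in A/J, and 10.61 and 10.42 in A/JOlaHsd. The smaller difference in A/J-MyD88 thus went with saline legs that were already higher than those of A/J. The comparison with A/JOlaHsd lost its call without A/JOlaHsd ssRNA replicate 1 (1.20, adjusted p = 0.0587) or A/J saline replicate 3 (1.11, adjusted p = 0.0579), and with only the compared arrays in the fit (1.31, adjusted p = 0.06). No probe of the 8 members met the test for a difference in response.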

How the results depend on the processing

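Counts of member genes and probes called between ssRNA and saline legs in A/J were 0 and 0 as reported, against 17.9% of all probes. They were 2 and 4 with each strain normalized alone (28.9% of all probes) and 2 and 6 with median centring (35.5%). With the authors' normalized values they were 1 and 3 (29.1%). With 1 probe a gene, 1 gene was called (22.4% of all genes). With only the compared arrays 2 probes were called (23.1% of all probes), and with the replicate block 1 probe (19%). That block on A/J and A/J-MyD88 arrays only, a setting added after seeing the data, gave 1 and 7 (33.2%). Leaving out 1 array gave 0 to 1 genes and 0 to 3 probes: 1 and 3 without A/J saline replicate 2, and 1 and 1 without A/J ssRNA replicate 1. The genes called by their main probe were Sgca, and Utrn with each strain alone and with median centring, and other probes of Sgca, Dtna and Dag1 were among the probes called. Between saline legs of A/J and A/JOlaHsd, 4 genes and 8 probes were called as reported, against 44.4% of all probes. With all 18 arrays 0 and 1 were called (9.78% of all probes), and with median centring 7 genes (68.7%). Among probes above background on all 17 arrays 4 were called, a count added after seeing the data (55.4% of all such probes). Without 1 array the counts were 3 to 4 genes and 7 to 10 probes. Median centring gave 1 gene and 1 probe (Utrn) between saline legs of A/J-MyD88 and A/J, against 7.95% of all probes. For the response of A/J-MyD88 against A/J it gave 2 and 2 (Sgca, Utrn), against 16.9% of all probes. In that comparison of responses the added block gave 1 probe (Dtna), against 19.1% of all probes. The block changed no other count of members.

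Between saline legs of A/J and A/JOlaHsd some signs turned. With median centring Dmd was at -0.55 and Utrn ILMN_1251617 at -0.20. Sgcd, at an uncalled 0.08 as reported, was at -0.50 with median centring. These probes passed the filter only through the dysferlin-deficient strains, so no test is given. Without background correction Dtna ILMN_1222187 was at 0.39 (adjusted p = 0.0385). Median centring moved the median of all probes to -0.19 in A/J ssRNA legs and -0.22 in this saline comparison, and the share of calls that were higher to 31.7% and 36.8%, against 54.7% and 55.1% as reported. Calls of Dag1, Dtna ILMN_1221805, Sgcb ILMN_1255256 and Sspn held their direction and threshold in each alternative other than all 18 arrays. The cause was not tested. Over all probes, ssRNA against saline in A/J gave 3723 calls as reported and 380 with all 18 arrays.

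Group sizes of 2 and 3 arrays, and signals near background for Dmd, Utrn and Sgcd, limit what these arrays can show for those genes. The lower signal of the A/JOlaHsd arrays limits each comparison with that strain.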
